A study of Mus musculus with 16 samples.

Results

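Transcripts of 9 complement genes, C1qa, C1qb, C1qc, C3, C4b, C3ar1, C5ar1, Serping1 and Cfp, were followed in RNA-seq libraries of mouse suprarenal aorta, the stretch of abdominal aorta just upstream of the renal arteries. The genes were taken by symbol from a count table of 29695 genes, and all 9 were found and passed the filter on low counts. Male mice of 2 genotypes were used, Vamp8-/- knockout (KO) and C57BL/6 wild type (WT). Vamp8 encodes a SNARE protein that takes part in fusion of endosomes and granules, and the labels name no other allele. Each genotype received angiotensin II (AngII), a peptide hormone that raises blood pressure and is infused to model disease of the aortic wall, at 1000 ng/kg/min, or saline, for 5 days from a subcutaneous osmotic minipump. The 4 groups, KO AngII, KO saline, WT AngII and WT saline, held 4 libraries each, which the labels call biological replicates. The labels give no ages and do not say whether the WT mice were littermates of the KO mice. The submitters excluded vessels with visible bleeding or other gross damage, so the AngII groups hold only vessels without it.

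Complement is a cascade of plasma and tissue proteins that tags and destroys cells and microbes. C1q, built from the chains encoded by C1qa, C1qb and C1qc, starts the classical pathway, C4 and C3 are cleaved along it, and the small fragments C3a and C5a signal through the receptors encoded by C3ar1 and C5ar1. Properdin, encoded by Cfp, stabilises the C3-cleaving enzyme of the alternative pathway, and Serping1 encodes C1 inhibitor, which blocks the proteases of the C1 complex. In tissues C1q is made largely by macrophages, properdin by myeloid cells, and C3, C4 and C1 inhibitor also by fibroblasts and other stromal cells.

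None of the 9 genes passed the main test, edgeR's quasi-likelihood test with Benjamini-Hochberg adjustment over 15984 genes, in any of 6 comparisons. Of all genes tested, the same test called 0.444% for AngII against saline in WT, 0.0501% for AngII against saline in KO, 2.03% for KO against WT under AngII and 3.01% for KO against WT under saline. It called 0.0188% for the genotype by AngII interaction and 1.04% for the average AngII effect over both genotypes. The estimate furthest from 0 was that of C3ar1 for KO against WT under AngII, where the lowest adjusted p of the 9 genes was 0.0598, for Cfp. C1qa, C1qb, C1qc, C3ar1, C5ar1 and Cfp had their highest level in WT AngII replicate 4 and their second highest in WT AngII replicate 3. These 6 genes also varied together between libraries of a group. The 6 are treated together below because of these values and were not set apart beforehand.

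Library totals ran from 13284804 to 21643548 counts, and levels are given as CPM, counts scaled to a common library total after TMM normalisation. Vamp8 was at 14.1 to 26.7 CPM in KO AngII, 24.9 to 53.3 CPM in KO saline, 52.3 to 60.9 CPM in WT AngII and 45.9 to 57.2 CPM in WT saline. The value of 53.3 CPM belongs to the library labelled KO saline replicate 1, falls among the WT values and so goes against that label. It rests on 826 reads of 21643548 and on the lowest TMM scaling factor of all libraries, 0.716, which raises its CPM. Mitochondrially encoded genes took 10.1 to 24.3% of counts in KO AngII, 27.0 to 32.8% in KO saline, 9.56 to 16.3% in WT AngII and 8.33 to 17.7% in WT saline. The 32.8% belongs to the library labelled KO saline replicate 1 and lies above every WT library, so in this it was like the other KO saline libraries. Summed neuron and chromaffin cell markers reached 2950 CPM in KO AngII replicate 4, against at most 190 CPM in any other library of its group. With KO AngII replicate 4 and the library labelled KO saline replicate 1 both left out, the edgeR test again called none of the 9 genes in any comparison. Few of all 16182 genes tested in that fit were called either. For AngII against saline the calls were 128 in WT and 8 in KO. For KO against WT they were 257 under AngII and 416 under saline. The sources used here do not say whether both genotypes went through alignment and counting as 1 batch, so in every KO against WT value a difference in counting cannot be told apart from genotype.

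Levels per length, as CPM per kilobase of merged exons averaged over the 16 libraries, spanned a wide range. Serping1 was first with 174 ± 36.03 CPM per kb (SD, n = 16) and C3 second with 117 ± 28.6 CPM per kb. C1qa followed with 48.0 ± 19.5 CPM per kb, C1qb with 41.5 ± 16.7, C4b with 33.3 ± 8.20 and C1qc with 19.7 ± 8.01 CPM per kb. The transcripts of properdin and of both receptors were the least abundant, with 7.49 ± 2.52 CPM per kb for Cfp, 2.40 ± 1.57 for C5ar1 and 1.65 ± 1.30 for C3ar1. The order of neighbours held in every library for C1qa over C1qb, C4b over C1qc, C1qc over Cfp and Cfp over C5ar1. It was less firm for Serping1 over C3, which held in 12 of 16 libraries, and for C1qb over C4b, which held in 10 of 16 libraries. C3 lay above C1qa, and C5ar1 above C3ar1, in 15 of 16 libraries each.

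**Figure D1:**
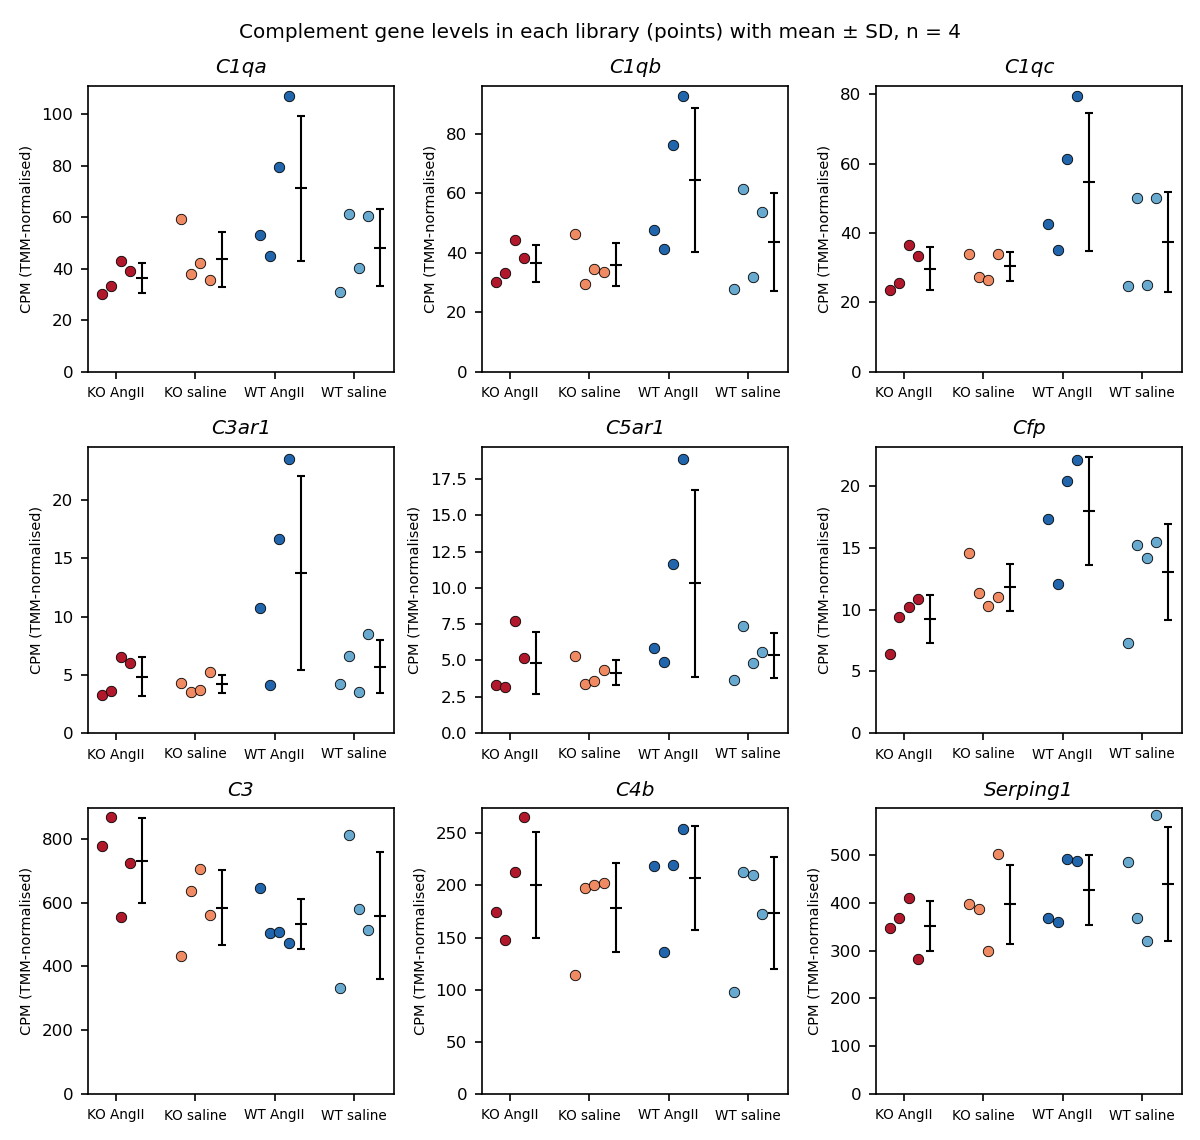
TMM-normalised CPM (vertical axes, from 0) of the 9 complement genes in the 4 groups (horizontal axes), with 1 point per library in replicate order and the mean ± SD of n = 4 beside them. WT AngII replicates 3 and 4 are the 2 highest points for C1qa, C1qb, C1qc, C3ar1, C5ar1 and Cfp, and not for C3 or Serping1.

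The 3 chains of C1q lie next to each other on chromosome 4 in the order C1qb, C1qc, C1qa, all on the minus strand, and the annotation shows no exon that they share with another gene. C1qa was at 30.2, 33.4, 43.1 and 39.0 CPM in KO AngII, 59.2, 38.0, 42.1 and 35.5 CPM in KO saline, 53.1, 45.2, 79.6 and 107 CPM in WT AngII, and 31.0, 61.1, 40.3 and 60.4 CPM in WT saline (replicates 1 to 4 in each group). Every KO AngII library lay below every WT AngII library, with a gap of 43.1 to 45.2 CPM, while the other pairs of groups overlapped. KO AngII lay wholly below WT AngII for 4.8% of all genes tested. The means were 36.4 ± 5.76 CPM in KO AngII and 71.3 ± 28.1 CPM in WT AngII (SD, n = 4 each).

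C1qb was at 30.2, 33.04, 44.4 and 38.1 CPM in KO AngII, 46.4, 29.5, 34.4 and 33.6 CPM in KO saline, 47.5, 41.4, 76.2 and 92.7 CPM in WT AngII, and 27.7, 61.4, 31.8 and 53.5 CPM in WT saline. C1qc was at 23.6, 25.5, 36.4 and 33.4 CPM in KO AngII, 33.8, 27.4, 26.4 and 34.0 CPM in KO saline, 42.7, 35.2, 61.3 and 79.5 CPM in WT AngII, and 24.9, 50.0, 25.1 and 50.0 CPM in WT saline. For both chains KO AngII and WT AngII overlapped only through KO AngII replicate 3 and WT AngII replicate 2. Among the WT saline libraries, replicates 2 and 4 were high and replicates 1 and 3 low for both chains.

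The proportions of the chains varied less than their levels. Reads of C1qb per read of C1qa lay between 0.776 and 1.03 over all 16 libraries, and reads of C1qc per read of C1qa between 0.572 and 0.957. C1qb per C1qa was 0.999 ± 0.0223 in KO AngII (range 0.977 to 1.03) and 0.831 ± 0.0785 in KO saline (range 0.776 to 0.946; SD, n = 4 each). It was 0.908 ± 0.0391 in WT AngII (range 0.865 to 0.958) and 0.893 ± 0.0874 in WT saline (range 0.791 to 1.00). These proportions were not tested, and how often such ranges stand apart for other ratios was not counted.

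The 250 bases before the start of 2 C1q genes and of C3 are shown because the C1q chains varied together and C3 varied apart from them. They come from the RefSeq promoter windows on build GRCm38.p6, all on the minus strand, at chr4:136886201-136886450 for C1qb, chr4:136892915-136893164 for C1qc and chr17:57228137-57228386 for C3. Capitals mark a match to GAGGAA, the core letters bound by the myeloid factor PU.1, on either strand.
C1qb: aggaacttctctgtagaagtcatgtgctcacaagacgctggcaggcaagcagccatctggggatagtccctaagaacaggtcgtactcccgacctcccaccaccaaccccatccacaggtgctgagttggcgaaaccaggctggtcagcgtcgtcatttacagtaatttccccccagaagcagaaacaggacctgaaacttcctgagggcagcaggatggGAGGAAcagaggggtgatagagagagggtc
C1qc: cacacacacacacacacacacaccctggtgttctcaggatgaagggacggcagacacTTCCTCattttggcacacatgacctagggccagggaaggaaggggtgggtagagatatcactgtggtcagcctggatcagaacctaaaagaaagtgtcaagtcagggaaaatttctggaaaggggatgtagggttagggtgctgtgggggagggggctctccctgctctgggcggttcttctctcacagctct
C3: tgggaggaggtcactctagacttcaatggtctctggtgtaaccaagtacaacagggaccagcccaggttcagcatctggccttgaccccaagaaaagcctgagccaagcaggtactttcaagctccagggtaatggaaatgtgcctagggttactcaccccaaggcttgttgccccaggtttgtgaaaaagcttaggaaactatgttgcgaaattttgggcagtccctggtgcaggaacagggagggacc
The first match began 30 bases before the start in C1qb and 193 bases before it in C1qc, where it lies on the opposite strand, and C3 held none. Of the 9 genes 6 had a window, and C3ar1, C5ar1 and Cfp held no match either. The same letters occur in 23.3% of 32851 windows of this length. An interferon response element, found in 2.98% of windows, and TTCNNNGAA, a STAT site found in 7.02%, were searched on both strands and occurred in none of the 6 windows. These letters are a description of the windows, and the data hold no measure of binding.

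C3ar1 encodes the receptor of C3a and showed the widest spread of the 9 genes. It was at 3.22, 3.59, 6.51 and 6.05 CPM in KO AngII, 4.33, 3.53, 3.72 and 5.19 CPM in KO saline, 10.7, 4.08, 16.6 and 23.6 CPM in WT AngII, and 4.20, 6.59, 3.48 and 8.50 CPM in WT saline. From the lowest to the highest library it spanned 7.32-fold, on 46 to 396 reads. In WT AngII 3 of 4 libraries lay above every other library in the series, and replicate 2 lay among the KO libraries.

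C5ar1 encodes the receptor of C5a and lies beside C5ar2 on chromosome 7. It was at 3.29, 3.15, 7.71 and 5.14 CPM in KO AngII, 5.30, 3.38, 3.58 and 4.33 CPM in KO saline, 5.84, 4.88, 11.6 and 18.9 CPM in WT AngII, and 3.66, 7.37, 4.84 and 5.58 CPM in WT saline. WT AngII replicates 3 and 4 stood above the other 14 libraries, and all groups overlapped. Both receptors rest on few reads, at most 396 for C3ar1 and 318 for C5ar1 in a library. Their spread between libraries of a group was also the widest, with a mean coefficient of variation of 38.3% for C3ar1 and 39.2% for C5ar1.

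Cfp, on the X chromosome between Timp1 and Elk1, was at 6.44, 9.39, 10.2 and 10.8 CPM in KO AngII, 14.6, 11.4, 10.3 and 11.0 CPM in KO saline, 17.3, 12.1, 20.4 and 22.1 CPM in WT AngII, and 7.25, 15.2, 14.2 and 15.5 CPM in WT saline. All KO AngII libraries lay below all WT AngII libraries, as was so for 4.8% of all genes tested. The means were 9.21 ± 1.94 CPM in KO AngII and 17.98 ± 4.40 CPM in WT AngII (SD, n = 4 each).

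C3, the component on which the pathways meet, was at 776, 869, 553 and 725 CPM in KO AngII, 431, 635, 706 and 562 CPM in KO saline, 646, 504, 509 and 472 CPM in WT AngII, and 331, 813, 579 and 514 CPM in WT saline. The highest library was KO AngII replicate 2, and the groups overlapped. Liver is the main source of plasma C3, and hepatocyte markers summed to 6.68 to 90.3 CPM in KO AngII, 4.30 to 209 CPM in KO saline, 3.61 to 50.8 CPM in WT AngII and 5.36 to 310 CPM in WT saline. The libraries with the most hepatocyte marker RNA, the library labelled KO saline replicate 1 and WT saline replicate 4, held 431 and 514 CPM of C3, and the part of liver RNA in the C3 values was not tested.

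C4b encodes the mouse C4 of the classical pathway and has a near-identical copy, C4a, so its reads could be split between them. C4a held 105 reads over all 16 libraries, with at most 13 in any library. C4b was at 175, 148, 213 and 266 CPM in KO AngII, 114, 197, 200 and 202 CPM in KO saline, 219, 136, 220 and 254 CPM in WT AngII, and 98.0, 213, 210 and 172 CPM in WT saline. The groups overlapped throughout, and each of them held 1 library at 148 CPM or less.

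Serping1 was at 349, 368, 410 and 284 CPM in KO AngII, 398, 387, 300 and 503 CPM in KO saline, 368, 359, 492 and 487 CPM in WT AngII, and 487, 368, 321 and 584 CPM in WT saline. It varied least of the 9 genes, by 2.06-fold from the lowest to the highest library, and the groups overlapped.

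The first comparison asks how the aorta of each genotype differed after 5 days of AngII. In WT, 7 of 9 estimates were positive for AngII against saline, with a median log2 fold change of 0.54, against -0.01 over all genes tested. C3ar1 averaged 13.7 ± 8.31 CPM in WT AngII and 5.69 ± 2.30 CPM in WT saline (SD, n = 4 each), a log2 fold change of 1.27 (SE 0.43, edgeR adjusted p = 0.335). C5ar1 averaged 10.3 ± 6.46 CPM in WT AngII and 5.36 ± 1.56 CPM in WT saline, a log2 fold change of 0.94 (SE 0.40, edgeR adjusted p = 0.498). These receptors were the 2 of 9 genes with an unadjusted p under 0.05, a mark that 8.8% of all genes reached. Neither difference passed, and the values of WT AngII overlapped those of WT saline for both receptors, through WT AngII replicate 2 for C3ar1 and through replicates 1 and 2 for C5ar1.

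For the C1q chains the log2 fold changes in WT lay between 0.54 and 0.56 and for Cfp at 0.46, with adjusted p from 0.588 to 0.648. C4b was at 0.26 (adjusted p = 0.916), and C3 and Serping1 were at -0.07 and -0.04. No gene of the 9 had WT AngII and WT saline values that did not overlap, against 6.24% of all genes tested. The log2 fold change of C3ar1 was 0.88 without WT AngII replicate 4 (edgeR adjusted p = 0.956) and 1.58 without WT AngII replicate 2 (adjusted p = 0.0589), the lowest and highest values over all 16 single omissions.

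In KO, AngII against saline gave 5 positive and 4 negative estimates with a median log2 fold change of 0.02, against 0.02 over all genes tested. None of the 9 genes had an unadjusted p under 0.05, against 19.2% of all genes. C3ar1 averaged 4.84 ± 1.68 CPM in KO AngII and 4.19 ± 0.747 CPM in KO saline, a log2 fold change of 0.21 whose 95% interval ran from -0.72 to 1.13. The largest positive estimate was that of C3, 0.32 (95% interval -0.19 to 0.84), and the most negative that of Cfp, -0.36 (95% interval -0.89 to 0.18). A lack of a call does not show that the level of these genes was the same in both KO groups.

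**Figure D2:**
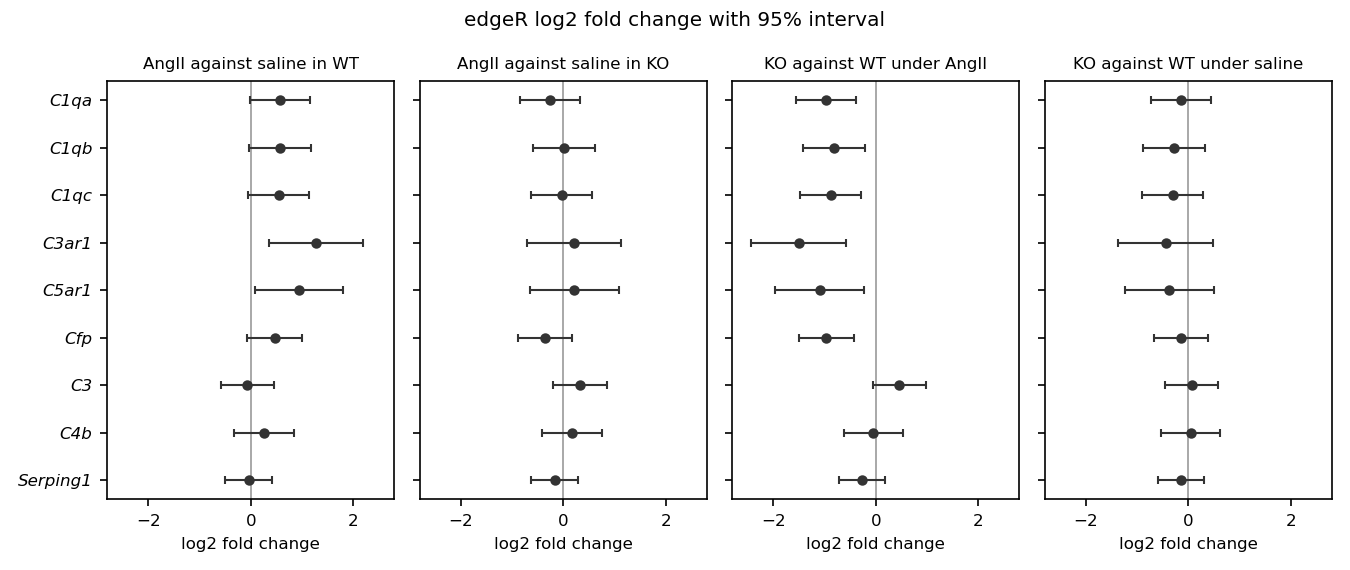
Log2 fold changes (horizontal axes) of the 9 genes (vertical axis) in 4 comparisons, with 95% intervals from edgeR. Under AngII, the intervals of KO against WT exclude 0 for C1qa, C1qb, C1qc, C3ar1, C5ar1 and Cfp before adjustment, whereas in KO every interval of AngII against saline spans 0.

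The next comparison asks how KO differed from WT, and the widest estimates were those among AngII-infused mice. There 8 of 9 were negative, with a median log2 fold change of -0.88, against 0.04 over all genes tested. C3ar1 averaged 4.84 ± 1.68 CPM in KO AngII and 13.7 ± 8.31 CPM in WT AngII, a log2 fold change of -1.50 (SE 0.43, edgeR adjusted p = 0.0762). C5ar1 averaged 4.82 ± 2.13 CPM in KO AngII and 10.3 ± 6.46 CPM in WT AngII, a log2 fold change of -1.10 (SE 0.41, edgeR adjusted p = 0.155). In a bulk sample such as these, fewer cells of a type and less RNA per cell cannot be told apart.

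The C1q chains had log2 fold changes of KO against WT under AngII of -0.97 for C1qa (adjusted p = 0.0730), -0.82 for C1qb (adjusted p = 0.128) and -0.88 for C1qc (adjusted p = 0.103), each with an SE of 0.28 in edgeR. Cfp stood at -0.96 (SE 0.25, edgeR adjusted p = 0.0598). These 4 and both receptors were the 6 of 9 genes with an unadjusted p under 0.05, a mark that 17.9% of all genes reached. C1qa and Cfp were the 2 of 9 genes whose KO AngII libraries all lay below the WT AngII libraries, as was so for 4.8% of all genes.

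The remaining genes differed less. C3 averaged 731 ± 133 CPM in KO AngII and 533 ± 77.1 CPM in WT AngII, the 1 positive estimate, with a log2 fold change of 0.46 (SE 0.24, edgeR adjusted p = 0.354). C4b was at -0.05 (95% interval -0.63 to 0.53) and Serping1 at -0.28 (95% interval -0.73 to 0.17).

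This comparison is the one in which the call depended on the tool. DESeq2, the tool the submitters named, called 4 of the 9 genes lower in KO AngII than in WT AngII, against 7.77% of all genes with an adjusted p. Its adjusted p was 0.00825 for Cfp, 0.0143 for C3ar1, 0.0215 for C1qa and 0.0462 for C1qc. limma voom with library quality weights called none of the 9, against 3.63% of all genes. In edgeR, leaving out WT AngII replicate 2 gave 3 calls, of C3ar1 (adjusted p = 0.0166), Cfp (0.0292) and C1qa (0.0416), against 2.44% of all genes. Cfp alone was called under 4 further settings. Its adjusted p was 0.0475 without KO AngII replicate 3 (5.18% of all genes called), 0.0476 without the library labelled KO saline replicate 1 (2.62%), 0.0277 without WT saline replicate 1 (1.41%) and 0.0487 with mitochondrially encoded genes removed (2.45%).

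Under saline the genotypes lay closer together for the 9 genes, though not over all genes, where edgeR called 3.01% under saline and 2.03% under AngII. For KO against WT, 7 of 9 estimates were negative with a median log2 fold change of -0.15, against 0.05 over all genes tested, and none of the 9 had an unadjusted p under 0.05, against 21.8% of all genes. C3ar1 averaged 4.19 ± 0.747 CPM in KO saline and 5.69 ± 2.30 CPM in WT saline, a log2 fold change of -0.44 (95% interval -1.36 to 0.48). The C1q chains were between -0.30 and -0.14, Cfp was at -0.14, and C3 and C4b were at 0.06 and 0.04.

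Whether the AngII effect itself differed between the genotypes was tested as an interaction. The log2 interaction estimates were negative for 8 of 9 genes with a median of -0.58, against 0.01 over all genes tested. Cfp was at -0.82 (SE 0.35, unadjusted p = 0.0343, edgeR adjusted p = 0.427) and was the 1 gene of 9 with an unadjusted p under 0.05, against 11.2% of all genes. C1qa was at -0.83 (SE 0.39, edgeR adjusted p = 0.444) and C3ar1 at -1.06 (SE 0.61, edgeR adjusted p = 0.498). A difference between the genotypes in the AngII effect on these genes was therefore not shown. These comparisons share libraries, since each group enters 2 of the 4 pairwise ones.

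Averaged over both genotypes, the AngII effect was positive for 8 of 9 genes with a median log2 fold change of 0.21, against 0.00 over all genes tested. C3ar1 was the 1 gene with an unadjusted p under 0.05, a mark reached by 15.1% of all genes, at 0.74 (SE 0.30, edgeR adjusted p = 0.270).

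Within groups, 6 of the 9 genes varied closely together. The log2 CPM of each gene was set against that of every other after the group means were taken away, over 16 libraries and 36 pairs. Permutations ran over all 16 libraries without regard to group, so permutation p may be too small, and passes near the threshold are uncertain. All 15 pairs among C1qa, C1qb, C1qc, C3ar1, C5ar1 and Cfp passed, with Pearson r of 0.688 to 0.972, Spearman rho of 0.685 to 0.947 and adjusted permutation p of at most 0.00725 for r and 0.0110 for rho. Without the 2 libraries farthest from the median, r still ran from 0.571 to 0.968 and all 15 passed. Of all pairs among the 15984 genes tested, 3.74% had an r at least as high as 0.688, the lowest of the 15, and since the 6 were grouped after their values were seen, the count of 15 is a description. The closest pair was C1qa with C1qb (r = 0.972, rho = 0.947, permutation p = 1e-05 for each, the smallest that 100000 resamples can give, adjusted p = 9e-05 for r and 0.00018 for rho).

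Pairs that join one of the 6 genes with C3, C4b or Serping1 gave r from -0.163 to 0.590, and 1 of 18 passed by Pearson r and 1 by rank. The first was C4b with Cfp (r = 0.590, permutation p = 0.0149, adjusted p = 0.0334), which did not pass by rank (rho = 0.385, permutation p = 0.142, adjusted p = 0.233). The second was C3ar1 with Serping1 (rho = 0.591, permutation p = 0.0172, adjusted p = 0.0388), which did not pass by Pearson r (r = 0.523, permutation p = 0.0359, adjusted p = 0.0681). C3 gave r of 0.0257 (permutation p = 0.925) and rho of -0.0912 (permutation p = 0.735) with C1qa. Without the 2 libraries farthest from the median, 5 of these 18 pairs passed, with r over the 18 from -0.675 to 0.666. They were C4b with C1qa (r = 0.626), C3ar1 (r = 0.656), C5ar1 (r = 0.651) and Cfp (r = 0.666), and C3 with C5ar1 (r = -0.675, adjusted permutation p = 0.0199). For C4b the adjusted permutation p was 0.0313 with C1qa and 0.0233 with each of the other 3. None of the 3 pairs among C3, C4b and Serping1 passed. C3 and Serping1 had r = -0.497 (permutation p = 0.0512, adjusted 0.0888) and rho = -0.532 (permutation p = 0.0359, adjusted 0.0760). C3 and C4b had r = 0.527 (permutation p = 0.0355, adjusted 0.0681) and rho = 0.456 (permutation p = 0.0773, adjusted 0.133). Over the settings compared, 14 to 22 of the 36 pairs passed, against 16 with all libraries, and the 22 came without KO AngII replicate 4 and the library labelled KO saline replicate 1.

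**Figure D3:**
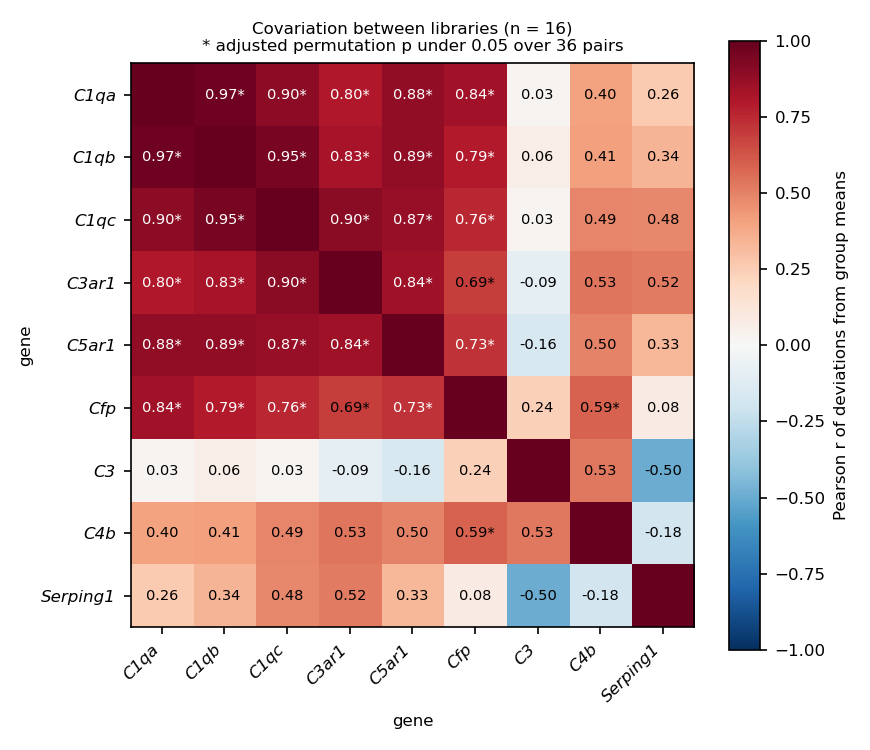
Pearson r of each pair of genes (rows and columns, colour scale from -1 to 1) for log2 CPM after the group means were subtracted, over n = 16 libraries, with stars where the adjusted permutation p over 36 pairs is under 0.05. C1qa, C1qb, C1qc, C3ar1, C5ar1 and Cfp form a block of r from 0.69 to 0.97, outside which C4b with Cfp is the single pair starred.

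Genes elsewhere in the table that were most like each of the 9 were found by the Pearson correlation of log2 CPM over 16 libraries among 14419 genes of mean CPM 1 or more, as a description. Each C1q chain had another C1q chain first, C1qb for C1qa (r = 0.964), C1qc for C1qb (r = 0.969) and C1qb for C1qc (r = 0.969). Lyz2, the lysozyme of myeloid cells, was among the 3 most like genes of all 3 chains and of both receptors, with r from 0.944 for C5ar1 to 0.966 for C1qc. Adgre1, which encodes the macrophage surface protein F4/80, was first for C3ar1 (r = 0.953). Cfp was most like C1qa (r = 0.910), then Rasgrp4 and Card9.

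The other 3 genes had other neighbours and lower values. C3 was most like Abca1, a cholesterol exporter (r = 0.843), then Slc1a3 and Serpina3c. C4b was most like Fmnl1 (r = 0.831), then Sirpa and Dnajc16. Serping1 was most like Rnase4 (r = 0.858), then Apbb1ip and Serpinf1.

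Macrophage markers were read beside these values. The 15 markers, none of them among the 9 genes, were all tested, and none was at 0 in all libraries. They summed to 219 to 310 CPM in KO AngII, 201 to 323 CPM in KO saline, 265 to 558 CPM in WT AngII and 287 to 489 CPM in WT saline. For KO against WT under AngII, 1 of 15 markers had a positive log2 fold change, the median was -0.89 and none was called, beside the median of -0.88 for the 9 complement genes. For AngII against saline in WT the macrophage markers had a median log2 fold change of 0.45, beside 0.54 for the complement genes.

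Monocyte markers summed to 158 to 254 CPM in KO AngII, 119 to 228 CPM in KO saline, 227 to 428 CPM in WT AngII and 159 to 389 CPM in WT saline. These sums weigh the most abundant markers and did not follow the list as a whole. WT saline replicate 1 had a sum of 266 CPM with a mean log2 CPM of 1.18. WT saline replicate 2 had a sum of 159 CPM with a mean log2 CPM of 1.72. The sums are therefore not a measure of monocyte number. All 6 monocyte markers had a positive log2 fold change for AngII against saline in WT, with a median of 1.47, and 1 of 6 did for KO against WT under AngII, with a median of -0.64. Of 6 neutrophil markers 3 were too low to be tested, Ly6g, Retnlg and Mpo, and the sum of the list was at most 6.59 CPM in any library. Fibroblast markers, for the cells that also make C3, C4 and C1 inhibitor, summed to 1829 to 2663 CPM in KO AngII, 2129 to 3143 CPM in KO saline, 2287 to 5200 CPM in WT AngII and 1877 to 3241 CPM in WT saline. None of the 8 fibroblast markers had a positive log2 fold change for KO against WT under AngII, with a median of -0.51, while 6 of 8 did for AngII against saline in WT, with a median of 0.051. No monocyte or fibroblast marker was called in either comparison, and the part of these cells in the values of the 9 genes was not tested.

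The mean log2 CPM of the macrophage markers was then set against each gene within groups, over 16 libraries and 9 genes. By Pearson r, C3ar1 followed it most closely (r = 0.924, rho = 0.874, permutation p = 1e-05 for r, the smallest possible, and 2e-05 for rho, adjusted p = 9e-05 for each). By rank C1qc was first (rho = 0.929, permutation p = 1e-05, adjusted 9e-05). C1qc (r = 0.882), C1qb (r = 0.802), C5ar1 (r = 0.777) and C1qa (r = 0.753) also passed, with adjusted permutation p of at most 0.00110 for r and 0.00673 for rho, and all 4 passed without the 2 farthest libraries. Cfp (r = 0.625, permutation p = 0.00989, adjusted 0.0148, and rho = 0.565, permutation p = 0.0249, adjusted 0.0320) passed with all libraries. Serping1 did so too (r = 0.545, permutation p = 0.0291, adjusted 0.0328, and rho = 0.565, permutation p = 0.0243, adjusted 0.0320). C4b passed by r (r = 0.578, permutation p = 0.0195, adjusted 0.0251) and not by rank (rho = 0.465, permutation p = 0.0719, adjusted 0.0809). Without the 2 farthest libraries r was 0.443 for Cfp, 0.407 for Serping1 and 0.540 for C4b and none of the 3 passed. For C4b the permutation p was then 0.0475 (adjusted 0.0713). C3 did not pass (r = 0.0679, rho = -0.0324, permutation p = 0.802 for r and 0.909 for rho). The adjustment covered these 9 genes only. How many of all genes tested follow the score as closely was not counted, so the passes cannot be called particular to these genes.

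**Figure D4:**
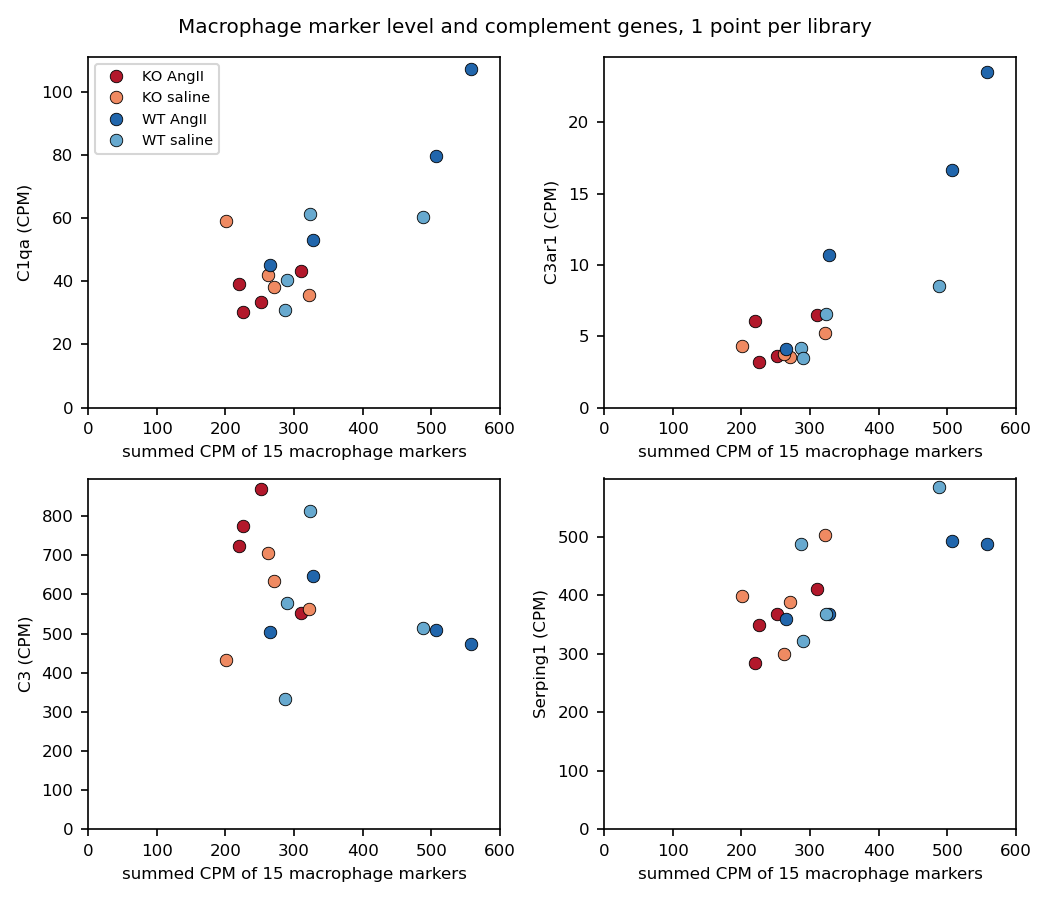
CPM of C1qa, C3ar1, C3 and Serping1 (vertical axes, from 0) against the summed CPM of 15 macrophage markers (horizontal axes), 1 point per library, coloured by group. WT AngII replicates 3 and 4, with 506 and 558 CPM of markers, hold the highest C1qa and C3ar1 but not the highest C3.

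With the macrophage marker score as a covariate, the log2 fold changes of KO against WT under AngII moved toward 0 for the 6 linked genes. They became -0.18 for C1qa (SE 0.27), 0.03 for C1qb (SE 0.26), 0.03 for C1qc (SE 0.20), 0.11 for C3ar1 (SE 0.29), 0.14 for C5ar1 (SE 0.39) and -0.44 for Cfp (SE 0.29). C3 was at 0.50 (SE 0.35), near its value of 0.46 without the covariate, and C4b moved to 0.49 (SE 0.33). None of the 9 was called in that fit. Over all 15984 genes tested it called 38 for KO against WT under AngII, against 324 without the covariate. The genes with an unadjusted p under 0.05 in edgeR numbered 1417, against 2860, so fewer differences were seen over all genes too. The score itself differed between the groups and was measured in the same libraries, so what part macrophage number or state has in these values was not tested.

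**Figure D5:**
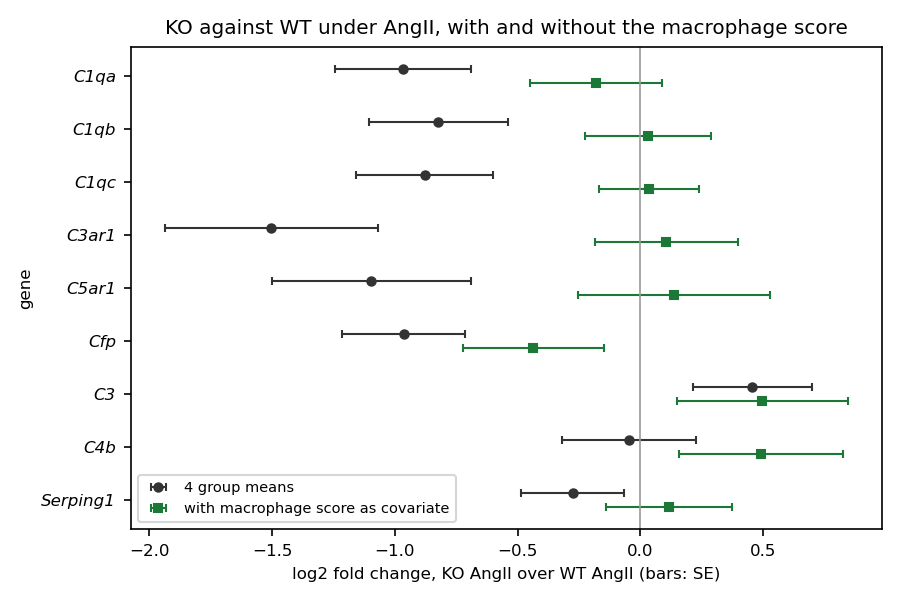
Log2 fold change of KO AngII over WT AngII (horizontal axis, bars are SE) of the 9 genes (vertical axis) with 4 group means (circles) and with the macrophage marker score as a covariate (squares). C1qa, C1qb, C1qc, C3ar1 and C5ar1 lie between -1.50 and -0.82 as circles and between -0.18 and 0.14 as squares, while C3 keeps 0.46 and 0.50.

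Of 47 further complement genes listed, 45 were in the table and 31 were tested. The edgeR test called none of the 31 in any of the 6 comparisons, and their log2 fold changes of KO against WT under AngII ran from -1.68 to 2.72 with a median of 0.08. There 8 of the 31 had an unadjusted p under 0.05. That is 25.8%, against 17.9% of all genes. Of the 31 estimates 17 were positive and 14 negative. For 4 of the 31 all KO AngII libraries lay above the WT AngII ones, against 4.54% of all genes. None of the 31 had them all below, against 4.8% of all genes. The 3 genes that follow, which macrophages and other myeloid cells express, were chosen after their values were seen. Vsig4, a complement receptor of tissue macrophages, was at -1.68 (SE 0.81, edgeR adjusted p = 0.294), Itgam, a chain of complement receptor 3, at -1.22 (SE 0.46, adjusted p = 0.165), and Itgb2, its partner chain, at -0.69 (SE 0.36, adjusted p = 0.337). Vsig4 (edgeR unadjusted p = 0.0550) and Itgb2 (0.0717) were not among the 8. Vsig4 was also very low, with means of 0.426 CPM in KO AngII and 1.38 CPM in WT AngII. Cd93 and C5ar2 of the same list were at 0.01 and -0.12. The 14 that were too low to be tested include Hc, which encodes C5, with at most 56 reads in a library, and C8a, C8b and C9 of the membrane attack complex.

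Genes of the list with the lowest p in a comparison are given as values. Vtn, vitronectin, which blocks the membrane attack complex, was at 6.93, 15.1, 6.72 and 20.5 CPM in KO AngII and 6.32, 4.88, 3.01 and 3.81 CPM in WT AngII, with a log2 fold change of 1.45 (SE 0.40, edgeR adjusted p = 0.0674). The 4 KO AngII libraries lay above the WT AngII ones, as for 4.54% of all genes. Cd59a, a membrane inhibitor of the same complex, was at 40.6, 28.7, 78.4 and 36.2 CPM in KO AngII and 188, 133, 83.1 and 71.9 CPM in KO saline, with a log2 fold change of -1.37 (SE 0.32, edgeR adjusted p = 0.106). Those groups overlapped through KO AngII replicate 3. For KO against WT, Cd59a was at -0.97 under AngII (SE 0.32, edgeR adjusted p = 0.113). Under saline Vtn was at 1.00 (SE 0.39, edgeR adjusted p = 0.165).

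C7, a component of the membrane attack complex, was at 114, 128, 122 and 61.4 CPM in WT AngII and 301, 221, 142 and 295 CPM in WT saline, with a log2 fold change of -1.17 (SE 0.39, edgeR adjusted p = 0.319) and no overlap of the groups, as for 6.24% of all genes. Fcna, a ficolin that starts the lectin pathway, was at 2.65, 4.07, 2.95 and 3.40 CPM in KO saline and 5.69, 6.92, 5.07 and 8.50 CPM in WT saline, with a log2 fold change of -1.003 (SE 0.32, edgeR adjusted p = 0.0957) and no overlap, as for 11.1% of all genes. Itgax, a chain of complement receptor 4, averaged 2.35 ± 1.05 CPM in WT AngII and 1.01 ± 0.830 CPM in WT saline (2.30-fold, 95% interval 1.14 to 4.62, edgeR adjusted p = 0.436). Cd93 averaged 95.8 ± 22.3 CPM in KO AngII and 140 ± 23.1 CPM in KO saline (log2 fold change -0.55, SE 0.21, edgeR adjusted p = 0.202). Other tools called some of the 31. In KO, for AngII against saline, DESeq2 called Cd59a (beside 4.64% of all genes) and voom called Cd59a and Colec12 (beside 3.51%). Under AngII, for KO against WT, DESeq2 called Vtn and Susd4 (beside 7.77%) and voom called Cd59a (beside 3.63%). Under saline, for KO against WT, DESeq2 called Fcna (beside 8.61%) and voom called C1qbp, Fcna and Colec12 (beside 20% of all genes).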

How the data were processed

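The authors deposited unnormalised read counts per gene, with 1 column for each library. The submitters' processing notes name GRCm39 (mm39) as the build and DESeq2 1.20.0, featureCounts 1.5.0-p3 and HISAT2 2.0.5 as tools. Annotation release, strandedness and handling of multimapping reads: not given in the sources used here. Group and replicate came from the sample titles. The labels call the libraries biological replicates without naming animals, so p-values set differences against the spread between these libraries.

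Genes kept by edgeR's filter (15984, with 13711 removed) were TMM-scaled and tested in 1 fit of 16 libraries (R 4.3.3, edgeR 4.0.16, 12 residual degrees of freedom, two-sided, threshold 0.05 after Benjamini-Hochberg adjustment). The biological coefficient of variation was 35.3%. The fit was tested on simulated counts for AngII against saline in WT. It called 49% of 100 genes with a true log2 change of 1 and 93% of 100 with a change of 2, so a gene that changes 2-fold can be missed. It also made 11 calls of unchanged genes. Log2 CPM used a prior count of 2, and correlations 100000 permutations. These took no account of the subtracted group means, also for the macrophage marker score, so their p may be too small. Exon lengths and gene neighbours came from a GRCm38 annotation and promoter windows from RefSeq (GRCm38.p6). C1qa, C4b and Serping1 had no window.

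Named genes are the 9, the 2 further complement genes of lowest p in each comparison, those called under another setting, and the 3 most like genes. Outside this rule Vsig4, Itgam, Itgb2 and Cfd were named after their values were seen. Clu and some genes too low to be tested were also named outside it. The members and lists were chosen with earlier results of these data known. Alternatives were RLE scaling, no filter, a filter of 1 CPM in 4 libraries, limma 3.58.1 voom, DESeq2 1.42.0, the replicate block, mitochondrial genes removed, macrophage or adipocyte marker scores as covariates, only the groups compared, and libraries left out.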

Additional observations from a re-analysis of the deposited data

Results flagged for a closer look

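In 2 of 36 groups of the 9 genes, 1 library lay far from the other 3. C4b was at 114 CPM in the library labelled KO saline replicate 1, against 197 to 202 CPM in the other KO saline libraries. Cfp was at 7.25 CPM in WT saline replicate 1, against 14.2 to 15.5 CPM in the other WT saline libraries. Chance alone sets apart about 1 in 20 groups, and over all 88 groups of genes and marker sums examined 12 were set apart.

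Among the further complement genes, C7 was at 218 CPM in KO AngII replicate 2, against 131 to 144 CPM in the other KO AngII libraries. Itgax was at 2.25 CPM in WT saline replicate 4, against 0.542 to 0.652 CPM in the other WT saline libraries.

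The remaining 8 were marker sums. Smooth muscle markers summed to 11400 CPM in KO saline replicate 4 (others 8500 to 8860 CPM), to 17200 CPM in WT AngII replicate 3 (others 11700 to 12400 CPM) and to 7770 CPM in WT saline replicate 2 (others 19500 to 21000 CPM). Hepatocyte markers summed to 90.3 CPM in KO AngII replicate 3 (others 6.68 to 11.9 CPM), to 209 CPM in the library labelled KO saline replicate 1 (others 4.30 to 21.2 CPM) and to 310 CPM in WT saline replicate 4 (others 5.36 to 19.6 CPM). Neuron and chromaffin cell markers summed to 2950 CPM in KO AngII replicate 4 (others 9.19 to 190 CPM) and to 38.5 CPM in WT saline replicate 1 (others 8.90 to 10.6 CPM).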

How the results depend on the processing

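Of 1440 single-gene values under other settings, 1369 kept their direction and their side of the threshold, 60 changed sign and 11 passed where the edgeR value had not, while none that changed sign had been called. No call of the 9 genes was gained outside KO against WT under AngII. There the count of the 9 genes called was 4 with DESeq2, 1 with mitochondrially encoded genes removed and 0 to 3 with single libraries left out.

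The counts over all genes moved more. For AngII against saline in WT, against 71 genes, they were 280 with DESeq2, 254 with voom, 42 with the replicate block, 0 with the macrophage score (668 at an unadjusted p under 0.05), 130 with the adipocyte score, 128 without the 2 libraries that stood apart, and 3 to 115 with single libraries left out. For AngII against saline in KO, against 8, they were 734 with DESeq2, 561 with voom, 14 with the replicate block, 19 with the adipocyte score, 4 with only the groups compared, and 6 to 32 with single libraries left out. For KO against WT under AngII, against 324, they were 1230 with DESeq2, 580 with voom, 166 with the replicate block, 38 with the macrophage score, 710 with the adipocyte score, 102 with only the groups compared, and 100 (without WT AngII replicate 3) to 845 (without KO AngII replicate 3) with single libraries left out. For KO against WT under saline, against 481, they were 1362 with DESeq2, 3197 with voom, 239 with the macrophage score, 127 with the adipocyte score, 203 with only the groups compared, and 105 to 1744 with single libraries left out. For the interaction, against 3, they were 97 with DESeq2, 173 with voom and 2 to 12 with single libraries left out. For the average AngII effect, against 166, they were 666 with DESeq2, 549 with voom, 45 with the macrophage score and 42 to 252 with single libraries left out. The causes of these moves were not tested.

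The same replicate numbers occur in every group, but same-numbered libraries deviated from their group means with correlations of -0.42 to 0.44, so the numbers were not taken to pair them. The replicate block called none of the 9 genes, and the log2 fold change of C1qb for AngII against saline in KO was -0.012 under it.

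Other changes of sign followed. With voom, C3 was at 0.29 for AngII against saline in WT and -0.042 for the interaction, C4b at -0.16 for AngII against saline in KO and Serping1 at 0.11 for the interaction. C4b was at -0.16 for AngII against saline in KO without the 2 libraries that stood apart and at -0.012 for KO against WT under saline with no filter. With the adipocyte score, C3ar1 was at -0.029 for AngII against saline in KO, and C3 at -0.15 and Serping1 at 0.17 for KO against WT under saline. With the macrophage score, estimates of KO against WT under AngII that had been as far from 0 as -1.50 for C3ar1 changed sign, giving 0.031 for C1qb, 0.035 for C1qc, 0.49 for C4b, 0.11 for C3ar1, 0.14 for C5ar1 and 0.12 for Serping1. Under saline that score gave 0.18 for C1qa, 0.082 for C1qb, 0.077 for C1qc, 0.15 for C3ar1, 0.057 for C5ar1 and 0.063 for Cfp. For the interaction it gave 0.28 for C4b, 0.081 for C5ar1 and 0.13 for Serping1, for the average AngII effect -0.075 for C1qa and -0.099 for Cfp, and for AngII against saline in WT -0.074 for C4b.

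With single libraries left out, values that changed sign ran as follows. For AngII against saline in WT, C3 ran from -0.25 to 0.17 and Serping1 from -0.15 to 0.13. For AngII against saline in KO, C1qb ran from -0.10 to 0.17, C1qc from -0.15 to 0.064, C4b from -0.0083 to 0.29 and C5ar1 from -0.11 to 0.38. For KO against WT, C4b ran from -0.23 to 0.074 under AngII and from -0.16 to 0.17 under saline, where C3 ran from -0.13 to 0.30 and Serping1 from -0.28 to 0.012. For the interaction, C4b ran from -0.27 to 0.090 and Serping1 from -0.31 to 0.0073, and for the average AngII effect Cfp ran from -0.048 to 0.13. Some further complement genes were called by edgeR with single libraries left out. For KO against WT under AngII, Vtn was called without KO AngII replicate 1, where 624 of 16345 genes were called. Without KO AngII replicate 3, Vtn and Cd59a were called, as were 845 of all 16318 genes. For KO against WT under saline, C1qbp was called without WT saline replicate 2, where 1744 of 16366 genes were called. For the average AngII effect, Itgax and Colec10 were called without WT saline replicate 4. All calls for that effect numbered 42 to 252 over the single omissions. Read depth is lowest for C3ar1 and C5ar1, with 46 and 44 reads in their lowest libraries.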

Other observations

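Among the further complement genes, Cfd, which encodes factor D of the alternative pathway and is made largely by adipocytes, had by far the highest level per length. It was named after its values were seen. Cfd averaged 2215 ± 669 CPM in KO AngII, 2468 ± 679.9 CPM in KO saline, 1763 ± 696 CPM in WT AngII and 1647 ± 1043 CPM in WT saline (SD, n = 4 each), or 2402 CPM per kb in KO AngII and 1786 CPM per kb in WT saline. Adipocyte markers summed to 3670 to 8255 CPM in KO AngII, 4632 to 11414 CPM in KO saline, 2253 to 5606 CPM in WT AngII and 1477 to 8496 CPM in WT saline. Cfd was not called by edgeR in any of the 6 comparisons. Clu, which encodes clusterin, an inhibitor of the membrane attack complex, averaged 439 ± 69.2 CPM in KO AngII, 416 ± 48.1 CPM in KO saline, 380 ± 43.0 CPM in WT AngII and 484 ± 171 CPM in WT saline, and was not called either.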
